A study of Homo sapiens with 6 samples.

Results

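Small nucleolar RNA (snoRNA) host genes were followed in doxorubicin-resistant breast cancer cells with and without cyperotundone (CYT), a compound from sedge plants. The members were chosen by name. They are the gene rows whose symbol begins with SNHG and a number, together with GAS5, ZFAS1, EPB41L4A-AS1 and DANCR, without pseudogenes. This gave 29 rows of the 58302 in the count table, with 28 symbols, because SNHG28 stands for a lincRNA row and a protein-coding row. The cells were MDA-MB-231-DR, the doxorubicin-resistant form of MDA-MB-231, a human triple-negative breast cancer line. According to the study's methods, the resistant cells were grown in medium with a low concentration of doxorubicin, so both groups carry the resistant background. The control group was 3 libraries of these cells without CYT, and the CYT group was 3 libraries of the same cells treated with CYT. The dose and duration of CYT for RNA sequencing, and what the control cells received in its place, are not given in the sources used here. The labels give no separate origin for the replicates, so p-values measure the spread between these libraries, which may be technical.

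A snoRNA host gene is transcribed as a spliced RNA that carries snoRNAs inside its introns. Box C/D snoRNAs guide ribose methylation of ribosomal RNA, box H/ACA snoRNAs guide pseudouridylation, and the related scaRNAs act on spliceosomal RNAs in Cajal bodies. The spliced exons of many non-coding hosts, with GAS5 as the best known case, leave the nucleus, are loaded with ribosomes and are degraded during translation by nonsense-mediated decay (NMD), and several host transcripts begin with a terminal oligopyrimidine (TOP) tract like that of ribosomal protein mRNAs. The amount of host RNA in a poly(A) library is therefore a measure of the spliced exons and not of the snoRNAs.

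Total counts ran from 14050849 to 17770102 in the control and from 13056270 to 14106017 in the CYT libraries. The line's defining genes were present, with vimentin (VIM) at 11463 to 44600 counts and the receptor tyrosine kinase AXL at 5446 to 14679, whereas the estrogen receptor gene ESR1 reached at most 4 counts and PGR at most 3. The third receptor gene, ERBB2, was not near 0, at 720 to 1327 counts in control and 236 to 653 in CYT. Of the 7 markers of other cells, CD3E had 0 counts in every library, PTPRC at most 7, CDH5 at most 4 and EPCAM at most 12, whereas PECAM1 had 8 to 35, GATA3 33 to 93 and FOXA1 34 to 141. Their summed count was 138 to 270 in the control and 93 to 203 in the CYT libraries. The sum of the 5 line markers was 67674 to 83821 in the control and 30376 to 32536 in the CYT group, and the part of these levels in the results was not tested. CYT replicate 2 stood apart from the other libraries of its group, with a correlation of log2 CPM of 0.904 and 0.905 against 0.970 between CYT replicates 1 and 3. Values without it are given where it changed a call and for the 7 members whose log2 fold change it moved most.

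Of the 29 members, 23 had enough counts to be tested, and 7 of these passed an adjusted p of 0.05 (edgeR, quasi-likelihood, with p-values adjusted over all genes by the Benjamini-Hochberg method). A total of 6 members fell with CYT, namely SNHG17, SNHG3, the SNHG28 lincRNA, SNHG4, SNHG15 and SNHG7, with fitted decreases of 2.05-fold to 3.75-fold. SNHG1 rose by 3.10-fold and was the only tested member called higher. The 7 calls are 30.4% of the tested members, beside 28.6% of all 15572 genes tested. By direction, 26.1% of the members were called lower, beside 12.9% of all genes, and 4.35% were called higher, beside 15.7%. The median log2 fold change of the tested members was -0.26, and that of all genes was 0.01. With upper-quartile normalization these medians were -0.13 and 0.16, and with the replicate number as a block -0.13 and -0.02. GAS5 and ZFAS1, the best known members, did not pass the test. GAS5 had a log2 fold change of -0.56 and ZFAS1 of 0.46. Without CYT replicate 2 the calls were 7 lower and 2 higher, with GAS5 and SNHG9 added to the 7, beside 17% of all genes lower and 18.6% higher in the same fit. Without control replicate 1, 4 members were called lower and 0 higher, beside 7.41% and 10.9% of all genes. Without control replicate 3, 3 members were called lower and 1 higher, beside 7.36% and 10.3%. Each of the other libraries left 1 member called higher when omitted, with 5 lower without control replicate 2 (beside 10.2% lower and 13.1% higher over all genes), 4 lower without CYT replicate 1 (8.48% and 12.3%) and 4 lower without CYT replicate 3 (7.63% and 12.2%). Calls over all genes were thus also more without CYT replicate 2 and fewer without either control library.

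**Figure D1:**
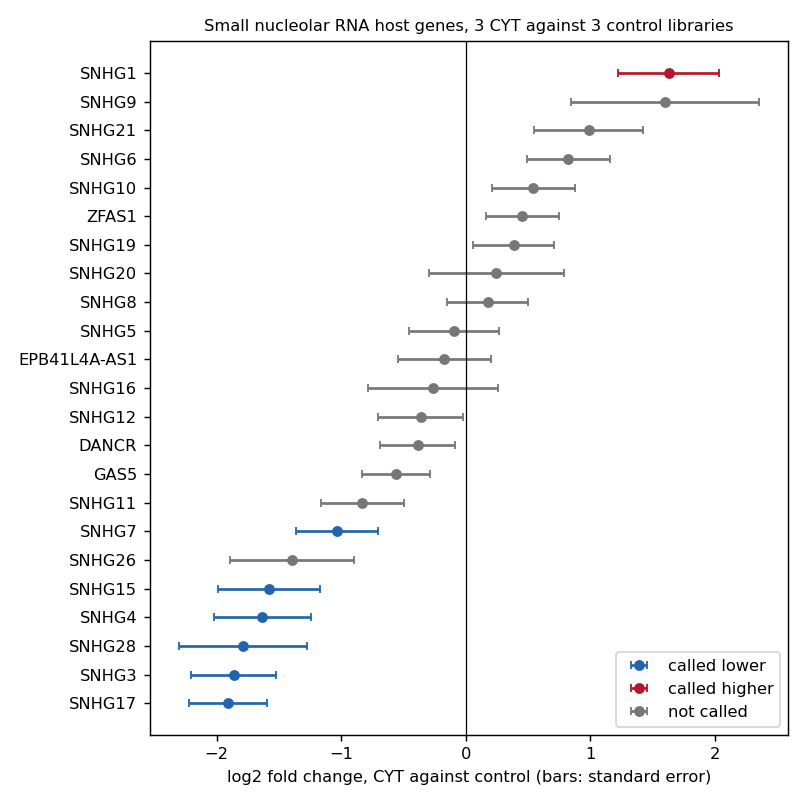
Log2 fold change of each tested host gene, CYT against control, with bars of 1 standard error from edgeR. The 6 members called lower lie between -1.91 and -1.03, SNHG1 lies at 1.63, and the gray members did not pass the adjusted p of 0.05.

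The largest fall was in SNHG17 (ENSG00000196756), a non-coding gene at chr20:38420588-38435353 on the minus strand whose introns hold SNORA71A, SNORA71B, SNORA71C and SNORA71D of the H/ACA class. Its TMM-normalized CPM (the read count scaled to library size and composition) was 30.01, 30.03 and 34.4 in the control libraries and 8.46, 6.69 and 10.01 in the CYT libraries, each in the order of their replicate numbers. The groups were well apart, since the highest CYT library lay far below the lowest control library. The log2 fold change was -1.91 with a standard error of 0.31 and an edgeR adjusted p of 0.00242. It kept its call when any 1 library was left out, with adjusted p from 0.00190 to 0.0145.

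SNHG3 (ENSG00000242125, chr1:28505980-28510892, plus strand) hosts the H/ACA snoRNAs SNORA73A and SNORA73B. Its CPM was 95.2, 85.5 and 63.6 in control and 23.8, 15.02 and 28.3 in CYT. All CYT libraries lay below all control libraries, with a log2 fold change of -1.86 and a standard error of 0.34 (edgeR adjusted p = 0.00400). The whole SNHG3 locus lies inside RCC1, the guanine nucleotide exchange factor gene of Ran, on the same strand, so reads of the 2 genes may not have been separated. RCC1 was at 1800, 2019 and 1034 counts in control and 443, 433 and 918 in CYT, with a log2 fold change of -1.12 that did not pass (adjusted p = 0.0621). CYT replicate 3 had the highest count of its group for both genes, with 918 for RCC1 and 356 for SNHG3. The SNHG3 count was 338 in CYT replicate 1, where RCC1 had 443. The part of shared reads in the fall of SNHG3 was not tested.

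SNHG15 (ENSG00000232956, chr7:44983023-44986961, minus strand) holds SNORA9. Its CPM was 41.8, 37.5 and 81.5 in control and 21.2, 11.3 and 21.4 in CYT. The groups did not overlap, but control replicate 3 stood far above the other control libraries. The log2 fold change was -1.58 with a standard error of 0.41 (edgeR adjusted p = 0.0179), and without control replicate 3 it was -1.17 and did not pass (adjusted p = 0.0817).

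SNHG7 (ENSG00000233016, chr9:136721366-136728184, minus strand) holds SNORA17A and SNORA17B. Its CPM was 40.5, 38.5 and 43.8 in control and 21.9, 12.7 and 25.4 in CYT. The control libraries were close together and every CYT library was lower, with a log2 fold change of -1.03 and a standard error of 0.33 (edgeR adjusted p = 0.0428). This call lay near the threshold. It was lost when any of the 3 control libraries, CYT replicate 1 or CYT replicate 3 was left out, with adjusted p of 0.0593 to 0.124 and log2 fold changes of -1.22 to -1.005. Without CYT replicate 2 the call held at a log2 fold change of -0.79 (adjusted p = 0.0334). SNHG7 overlaps FAM69B on the opposite strand over 2685 bp, and FAM69B fell from 226, 229 and 178 counts to 33, 17 and 21 (log2 fold change -2.90, adjusted p = 0.00111). Whether the counting used strand is not given in the sources used here, so reads of the overlapping stretch cannot be assigned to either gene.

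SNHG4 (ENSG00000281398, chr5:139274102-139283244, plus strand) holds the H/ACA snoRNAs SNORA74A and SNORA74D. It had fewer reads, with 96, 226 and 144 counts in control and 37, 47 and 40 in CYT. The CYT libraries were close together and below all control libraries, and the log2 fold change was -1.63 with a standard error of 0.39 (edgeR adjusted p = 0.0127). SNHG4 lies wholly within MATR3, which codes for the nuclear matrix protein matrin 3, on the same strand, and within SIL1 on the opposite strand. MATR3 had a log2 fold change of -0.94 (adjusted p = 0.182) and SIL1 of -1.01 (adjusted p = 0.0598), neither of which passed, so the SNHG4 count is uncertain where the genes share exonic sequence.

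The SNHG28 lincRNA row (ENSG00000188004, chr1:159834474-159855347, minus strand) was the least abundant of the members called, with 61, 55 and 50 counts in control and 16, 20 and 5 in CYT. The groups did not overlap, and the log2 fold change was -1.79 with a standard error of 0.52 (edgeR adjusted p = 0.0285). The call was lost without control replicate 1, control replicate 3, CYT replicate 1 or CYT replicate 3, with adjusted p of 0.0664 to 0.0839 and log2 fold changes of -1.90 to -1.40. Without CYT replicate 2 the log2 fold change was -2.14 (adjusted p = 0.0147). The protein-coding row of the same symbol had 0 counts in every library.

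SNHG1 (ENSG00000255717, chr11:62851988-62855914, minus strand) is the host of a run of C/D snoRNAs that includes SNORD22, SNORD25, SNORD26, SNORD27, SNORD28 and SNORD30. Its CPM was 27.3, 59.2 and 60.5 in control and 103, 211 and 142 in CYT. Control replicate 1 was the lowest and CYT replicate 2 the highest, and no CYT library came down to the control range. SNHG1 had a log2 fold change of 1.63 with a standard error of 0.41 (edgeR adjusted p = 0.0152). Without control replicate 1 it was 1.32 with an adjusted p of 0.0547, and in the other 5 fits with a library left out it passed, at 1.31 without CYT replicate 2 (adjusted p = 0.0225). The start of SNHG1 lies 188 bp from that of SLC3A2, the heavy chain of amino acid transporters, which is transcribed in the opposite direction. SLC3A2 had 5045, 5209 and 3004 counts in control and 4178, 3307 and 3953 in CYT, with a log2 fold change of 0.07 (adjusted p = 0.883).

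**Figure D2:**
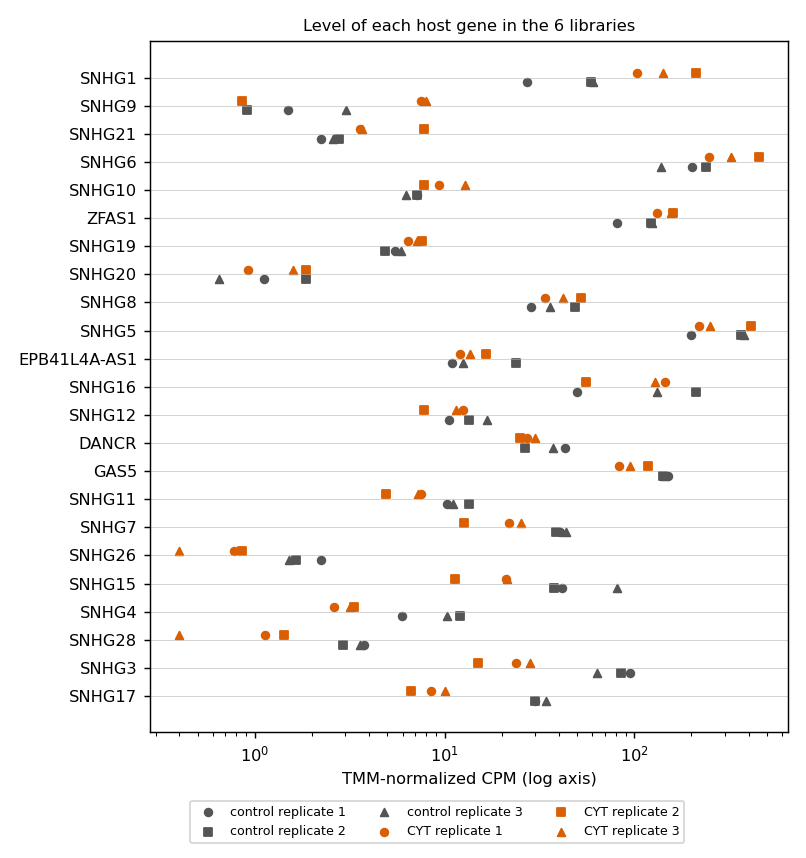
TMM-normalized CPM of the 23 tested host genes in the 6 libraries on a log axis, gray for control and orange for CYT, with the shape giving the replicate. SNHG1 at the top has its 3 CYT libraries to the right of the control libraries, and SNHG17 and SNHG3 at the bottom have them to the left.

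GAS5 (ENSG00000234741, chr1:173863900-173868882, minus strand), the growth arrest-specific host of a series of C/D snoRNAs, had a CPM of 150.04, 142 and 144 in control and 83.1, 118 and 95.1 in CYT. Its control libraries were the closest together of all tested members, and all CYT libraries were below them. The log2 fold change of -0.56 had a standard error of 0.27 and did not pass in edgeR (adjusted p = 0.156). Without CYT replicate 2 it was -0.71 with an adjusted p of 0.0409.

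ZFAS1 (ENSG00000177410, chr20:49278178-49295738, plus strand), the antisense neighbor of ZNFX1 and host of SNORD12, SNORD12B and SNORD12C, had a CPM of 81.1, 122 and 123 in control and 132, 159 and 157 in CYT. Every CYT library was above every control library, by a small margin over control replicates 2 and 3. ZFAS1 had a log2 fold change of 0.46 with a standard error of 0.29 (edgeR adjusted p = 0.268). ZNFX1, whose start lies 248 bp from that of ZFAS1, had a log2 fold change of -0.20 (adjusted p = 0.627).

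DANCR (ENSG00000226950, chr4:52712404-52720351, plus strand), an RNA known as an antagonist of differentiation and host of SNORA26, had a CPM of 43.0, 26.6 and 37.2 in control and 27.1, 24.98 and 29.8 in CYT. EPB41L4A-AS1 (ENSG00000224032, chr5:112160526-112164276, plus strand), host of SNORA13, had 10.9, 23.8 and 12.5 in control and 12.0, 16.4 and 13.6 in CYT. The groups overlapped in both genes. EPB41L4A-AS1 lies wholly within EPB41L4A on the opposite strand, a gene of 57 to 139 counts. The EPB41L4A-AS1 count is therefore uncertain while the strand setting is not known. The log2 fold changes were -0.38 for DANCR (edgeR adjusted p = 0.366) and -0.17 for EPB41L4A-AS1 (adjusted p = 0.768), and that of EPB41L4A-AS1 was 0.24 without control replicate 2.

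Among the abundant members, SNHG6 (ENSG00000245910, host of SNORD87) came nearest to a call. Its CPM was 202, 238 and 138 in control and 248, 457 and 322 in CYT, so that all CYT libraries were above the control libraries, the nearest by little. The log2 fold change was 0.83 with a standard error of 0.34 (edgeR adjusted p = 0.0932), and with the replicate number as a block it was 0.82 and passed (adjusted p = 0.0375). Without CYT replicate 2 it was 0.55 (adjusted p = 0.168). SNHG5 (ENSG00000203875, host of SNORD50B) was at 198, 365 and 378 CPM in control and 219, 412 and 252 in CYT. SNHG8 (ENSG00000269893, host of SNORA24) was at 28.7, 48.8 and 36.0 in control and 33.9, 52.5 and 42.0 in CYT. In both genes the spread within groups exceeded the difference between them. SNHG5 had a log2 fold change of -0.09 (edgeR adjusted p = 0.873) that turned to 0.05 with upper-quartile normalization and was -0.43 without CYT replicate 2, and SNHG8 had one of 0.18 (adjusted p = 0.716).

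SNHG16 (ENSG00000163597, host of SNORD1A, SNORD1B and SNORD1C) varied most within the control group among the tested members. Its CPM was 49.7, 211 and 132 in control and 144, 55.4 and 128 in CYT, which is a 4.25-fold range within control. The log2 fold change of -0.26 (edgeR adjusted p = 0.742) was 0.25 without control replicate 2 and 0.04 without CYT replicate 2. SNHG19 (ENSG00000260260, host of SNORD60) was even, with 5.46, 4.85 and 5.90 CPM in control and 6.42, 7.62 and 7.15 in CYT. All its CYT libraries were above control, but the log2 fold change of 0.39 did not pass (adjusted p = 0.401).

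The other 7 tested members were not called, and most were low. SNHG9 (host of SNORA78) had 24, 17 and 42 counts in control and 106, 12 and 101 in CYT, so that 2 CYT libraries were high and CYT replicate 2 was below every control library. Its log2 fold change of 1.60 had a standard error of 0.76 (edgeR adjusted p = 0.142), and without CYT replicate 2 it was 2.11 and passed (adjusted p = 0.0104). SNHG26, host of SNORD93, had 36, 31 and 21 counts in control and 11, 12 and 5 in CYT, with a log2 fold change of -1.39 (adjusted p = 0.0638). SNHG11, host of SNORA60 and SNORA71E, had 167, 252 and 154 counts in control and 106, 69 and 91 in CYT, with one of -0.83 (adjusted p = 0.0893). In both, all CYT libraries were below control in CPM.

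The next 3 members host scaRNAs. SNHG21 had a CPM of 2.23, 2.77 and 2.59 in control and 3.60, 7.83 and 3.66 in CYT. Its CYT libraries were all above control with CYT replicate 2 far over the others, and the log2 fold change of 0.99 (edgeR adjusted p = 0.119) was 0.51 without that library (adjusted p = 0.323). It overlaps FSD2 on the opposite strand over 1845 bp, and FSD2 was called higher, with 0, 0 and 1 counts in control and 17, 26 and 20 in CYT (adjusted p = 0.00191). It also overlaps AC105339.2 on the same strand over 4323 bp, and AC105339.2 had a log2 fold change of -0.12 that did not pass (adjusted p = 0.879). SNHG10 was at 7.19, 7.13 and 6.25 CPM in control and 9.38, 7.76 and 12.9 in CYT, with a log2 fold change of 0.54 (adjusted p = 0.253). SNHG20 was at 1.12, 1.86 and 0.647 in control and 0.917, 1.85 and 1.59 in CYT, with one of 0.25 (adjusted p = 0.765). The groups of SNHG20 overlapped and those of SNHG10 did not. SNHG10 overlaps GLRX5 on the opposite strand over 1370 bp. GLRX5 had 901 to 1369 counts, against 87 to 162 of SNHG10, so the SNHG10 count is uncertain while the strand setting is not known. SNHG20 lies wholly inside SEC14L1 on the same strand, a gene of 1290 to 1919 counts in control and 660 to 1026 in CYT, against 9 to 35 counts of SNHG20, so its count is uncertain. SNHG12, which holds both kinds of snoRNA, was at 10.5, 13.4 and 16.8 CPM in control and 12.5, 7.76 and 11.4 in CYT, and its overlapping groups gave a log2 fold change of -0.36 (adjusted p = 0.462).

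Counting members whose groups did not overlap, 6 had all CYT libraries above all control libraries and 9 had them below, of 23 tested. These counts stand beside 23.4% of all tested genes above and 22.7% below. At an unadjusted p of 0.05, 11 of the 23 members passed, beside 40.9% of all genes. The remaining 6 members had too few reads to be tested. SNHG14, SNHG18, SNHG27 and the protein-coding SNHG28 row had at most 4 counts in any library, and SNHG25 had 9, 10 and 21 in control and 5, 2 and 12 in CYT. SNHG22 had 0 counts in all control libraries and 11, 5 and 1 in the CYT libraries.

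The members together were a small part of the RNA. Their summed count was 0.0976%, 0.158% and 0.133% of all counts in the control libraries and 0.114%, 0.172% and 0.124% in the CYT libraries. The group means were 0.130% ± 0.0302 (SD, n = 3) for control and 0.137% ± 0.0309 for CYT, so the falls of some members and the rise of SNHG1 took place within a total that overlapped between the groups. The share of counts from mitochondrial genes was 3.10% ± 0.613 in control and 6.23% ± 2.58 in CYT. With mitochondrial genes left out of the total, the members' share was 0.134% ± 0.0317 in control and 0.145% ± 0.0287 in CYT. The 5 largest members held 67.9% to 72.4% of the members' counts in control and 74.8% to 85.0% in CYT. Fewer cells, or less RNA per cell, cannot be told apart from these relative values.

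To compare levels between genes, CPM was divided by the length of each gene's merged exons in kilobases. SNHG6 was highest, at 155 ± 40.8 CPM per kb in control and 274 ± 84.9 in CYT (SD, n = 3), followed by SNHG5 at 112 ± 35.6 and 105 ± 36.8. In control the libraries of these genes overlapped, so their order is not settled. ZFAS1 (48.5 ± 10.7), SNHG8 (41.0 ± 11.0) and GAS5 (40.0 ± 1.12) came next in control and were within each other's spread, while all their libraries were below those of SNHG5. In CYT, ZFAS1 was at 66.6 ± 6.61 and GAS5 at 27.2 ± 4.87 CPM per kb, with all ZFAS1 libraries above all GAS5 libraries.

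SNHG1, the member called higher, was at 13.05 ± 5.01 CPM per kb in control, rank 11 of the 29 members, and at 40.5 ± 14.5 in CYT, rank 5. SNHG3 went from rank 7 (19.9 ± 3.97) to rank 11 (5.47 ± 1.65), and SNHG17 from rank 13 (7.52 ± 0.609) to rank 19 (2.004 ± 0.397). SNHG20 had the lowest mean of the tested members, at 0.199 ± 0.101 in control and 0.239 ± 0.0791 in CYT, where its libraries overlapped those of SNHG26 (0.257 ± 0.0930).

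The deposited FPKM values were not used for this order. The gene length that count and FPKM imply was the sum of all distinct exons, overlapping ones counted again, within 1 bp in all 18 tested members whose locus could be matched, and in 95.9% of 9755 genes compared. For SNHG1 the implied length was 14273 bp, although the whole locus spans 3927 bp and its merged exons 3756 bp. In 11 tested members the implied length exceeded the locus. FPKM therefore lies 3.80-fold below a value per merged exon length for SNHG1 and 3.23-fold below for GAS5, but not at all below for SNHG19, which has 1 annotated transcript. By deposited FPKM, SNHG1 had rank 13 and GAS5 rank 8 in control, against ranks 11 and 5 per merged exon length.

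**Figure D3:**
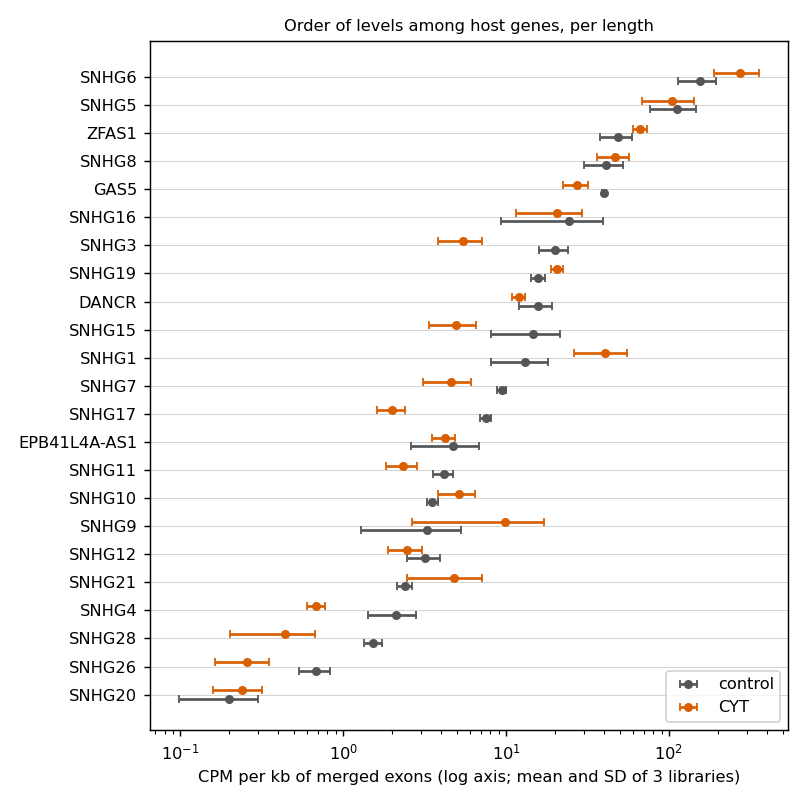
Level of each tested host gene as CPM per kb of merged exons on a log axis, as mean and SD of 3 libraries, gray for control and orange for CYT, ordered by the control mean. SNHG6 and SNHG5 lie highest in both groups, SNHG1 has its CYT mean to the right of its control mean, and SNHG17 and SNHG3 have theirs to the left.

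Sorted by the kind of snoRNA rows inside them, the tested members with only C/D snoRNAs (SNHG26, SNHG16, SNHG5, SNHG19, ZFAS1, SNHG6 and SNHG1) had 1 call higher and 0 lower among 7, with a median log2 fold change of 0.39 and a range of -1.39 to 1.63. The 10 with only H/ACA snoRNAs (SNHG17, SNHG3, SNHG4, SNHG15, SNHG7, SNHG11, DANCR, EPB41L4A-AS1, SNHG8 and SNHG9) had 0 higher and 5 lower, with a median of -0.93 and a range of -1.91 to 1.60. Over all genes 15.7% were called higher and 12.9% lower, and 1 call higher among 7 is close to that share. GAS5, known as a C/D host, is in neither class because none of the small RNA rows analysed here lies inside it. Among protein-coding hosts the counts were 0 higher and 14 lower of 56 C/D hosts (median -0.24) and 3 higher and 12 lower of 67 H/ACA hosts (median -0.29). Coding genes that span a member on the same strand, such as RCC1 and MATR3, were counted as hosts through its snoRNAs. The difference between the kinds was not tested.

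The snoRNAs themselves were hardly captured. The small RNA rows analysed inside the members were 137, of which 84 lie in SNHG14 and had 0 counts in every library. Over all rows the summed counts were 147, 235 and 182 in control and 137, 154 and 90 in CYT. The highest single count was 68, for SNORA61 inside SNHG12, with 41, 68 and 50 in control and 17, 29 and 1 in CYT. In addition, 13 of these rows held exactly 1 count in all 6 libraries, among them SNORD22, SNORD25 and SNORD28 of SNHG1. Over all genes counted, 220 had this pattern, and 164 of them were microRNA or snoRNA genes. Of the 137 rows, 12 reached at least 10 counts in a library and 2 passed the filter. In these mRNA libraries the rows were not taken as a measure of snoRNA levels, and a count of 1 in them was not taken as a read.

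The starts of the annotated transcripts were read for a TOP-like sequence, here a first base C in an unbroken run of at least 5 pyrimidines (C or T) on the transcript strand, with the sequences taken from GENCODE release 29 on GRCh38. It stood at the start of 33 of 258 member transcripts (12.8%), of 2.41% of all 206694 transcripts and of 2.51% of transcripts of non-coding genes. Of the 23 tested members, 12 had at least 1 such transcript, against 7.31% of the 1573 other tested non-coding genes. A gene with more annotated transcripts has more starts that can match, and some members have many (GAS5 29, SNHG1 25). This comparison of genes was not adjusted for transcript number. The first 30 bases are shown for 8 members as examples, picked after their values were seen. They are 3 abundant members that were not called (GAS5, ZFAS1 and SNHG5), SNHG1, and 4 of the members called lower, with the run in capitals where there is one and in lower case throughout where no annotated transcript of the gene has it. Those of GAS5 (chr1:173867960-173867989, minus), ZFAS1 (chr20:49278642-49278671, plus), SNHG5 (chr6:85678704-85678733, minus), SNHG1 (chr11:62855450-62855479, minus) and SNHG3 (chr1:28506043-28506072, plus) have the run, and those of SNHG17 (chr20:38435324-38435353, minus), SNHG15 (chr7:44986932-44986961, minus) and SNHG7 (chr9:136728155-136728184, minus) do not.
GAS5-210: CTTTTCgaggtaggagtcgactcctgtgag
ZFAS1-201: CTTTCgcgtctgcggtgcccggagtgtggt
SNHG5-202: CTTTTacgtcggccttcgcgagcgtctggg
SNHG1-203: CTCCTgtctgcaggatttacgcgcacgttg
SNHG3-203: CCTTTTTggagacagattcgcagtggtcgc
SNHG17-201: cgtagcttccttgtcgtgtggcctcagtcc
SNHG15-206: cattaggggctcagcgcgtccctccaggcc
SNHG7-201: ctctgcgtgcgccggaggctgccgtggcgg

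Members with and without the run were called. Of the 7 members called, 3 (SNHG3, SNHG4 and SNHG1) have it in at least 1 transcript and 4 do not. The median log2 fold change was -0.18 with it and -0.38 without it. SNHG1 and SNHG3, which were called in opposite directions, have it in 1 of 25 and 1 of 3 annotated transcripts. The transcripts shown for SNHG1, GAS5 and ZFAS1 start 435, 893 and 464 bases inside the gene. A match is a feature of annotated starts, which were not measured in these libraries.

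The tested members were set beside gene lists that share a feature with them. The 1573 other non-coding genes tested had 695 calls higher (44.2%) and 63 lower (4.01%), with a median log2 fold change of 1.23. The members had 1 higher (4.35%) and 6 lower (26.1%), beside 15.7% and 12.9% of all genes. The filter also kept genes with enough counts in either group alone, so these shares and medians may partly reflect that selection. Only 8 of 43 other non-coding genes that hold snoRNAs could be tested, and their median was 0.09. In this group LINC02001 rose from 248, 479 and 271 counts to 1005, 878 and 954 (log2 fold change 1.79, edgeR adjusted p = 0.00307), and GPRC5D-AS1 fell from 42, 37 and 43 to 8, 8 and 3 (-2.45, adjusted p = 0.00781). Of 225 tested protein-coding snoRNA hosts, 9 were higher (4%) and 41 lower (18.2%), with a median of -0.24, beside 12.45% higher and 14.6% lower of all tested protein-coding genes. The largest changes among them were a fall of MVB12B (-3.55, edgeR adjusted p = 0.000664) and a rise of TEX14 (4.84, adjusted p = 0.000302). A coding gene counted as a host if a small RNA row lay inside it on the same strand. RCC1, MATR3 and SEC14L1 thus count through the small RNAs of SNHG3, SNHG4 and SNHG20, and the list is not fully separate from the members.

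Some genes that now carry SNHG symbols appear in the table under older names and so fall outside the rule by name. LINC02001, described above, is SNHG30 and was the only one of these called. LRRC75A-AS1 (SNHG29) was abundant, at 238, 346 and 347 CPM in control and 322, 399.7 and 428 in CYT, and had a log2 fold change of 0.30 (edgeR adjusted p = 0.453). C6orf48 (SNHG32) had one of 0.64 (adjusted p = 0.107), with all CYT libraries above control. AC016708.1 (SNHG31) was not tested, with 0, 1 and 0 counts in control and 6, 13 and 7 in CYT.

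**Figure D4:**
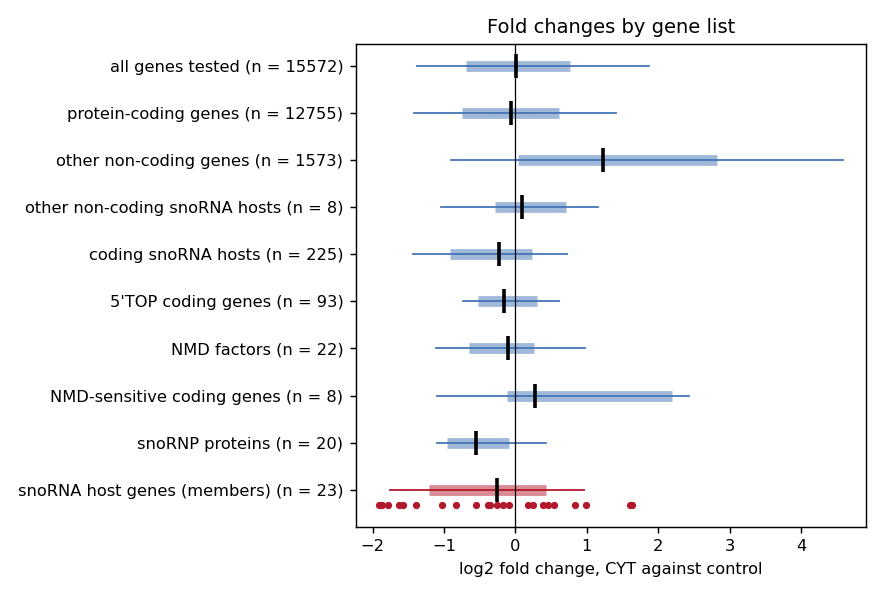
Log2 fold changes of gene lists, CYT against control, with a black tick at the median, a thick bar over the quartiles and a thin line from the 10th to the 90th percentile, and red points for the 23 host genes. The members have a median of -0.26, all genes one of 0.01 and the other non-coding genes one of 1.23. The filter also kept genes with enough counts in either group alone.

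Genes that share a sequence or machinery with the hosts were read from the same fit. TOP genes, which code for ribosomal proteins and translation factors and share the start sequence with several hosts, had 1 call higher and 5 lower of 93, with a median log2 fold change of -0.16 (1.08% higher and 5.38% lower, beside 15.7% and 12.9% of all genes). The elongation factor EEF2 (-1.59, edgeR adjusted p = 0.0115), EIF4B (-1.84, adjusted p = 0.00429) and EIF3E (-1.36, adjusted p = 0.0108) fell, and the ribosomal protein gene RPL39 rose (1.47, adjusted p = 0.0457). The proteins that assemble with snoRNAs had 0 higher and 4 lower (20%) of 20 tested, with a median of -0.56. These were DKC1, the pseudouridine synthase of H/ACA particles (-1.40, adjusted p = 0.0133), TGS1, which forms the trimethylguanosine cap (-1.38, adjusted p = 0.0109), and the assembly factors RPAP3 (-0.97, adjusted p = 0.0466) and NUFIP1 (-0.94, adjusted p = 0.0434), the last of them named beyond the rule to complete the 4.

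Of 22 NMD factors, 3 were called higher (13.6%) and 5 lower (22.7%), beside 15.7% and 12.9% of all genes, with a median log2 fold change of -0.10. UPF2 (1.17, edgeR adjusted p = 0.0334), the exon junction helicase EIF4A3 (1.05, adjusted p = 0.0143) and SMG8 (1.51, adjusted p = 0.0454) rose. SMG9 (-1.62, adjusted p = 0.0198), CASC3 (-1.54, adjusted p = 0.00884) and NBAS (-1.11, adjusted p = 0.0193) were among those that fell. Of 8 protein-coding genes whose mRNA is known to be NMD-sensitive, 3 rose (ATF3, 2.87, adjusted p = 0.00349; GADD45B, 2.24, adjusted p = 0.00100; DDIT3, 2.17, adjusted p = 0.00129) and 1 fell (ATF4, -2.02, adjusted p = 0.00269). These stress-response genes are also controlled by other means, and whether NMD had a part in their changes was not tested.

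CYT replicate 2 was the highest or the lowest library of its group in all 23 tested members, the highest in 13 and the lowest in 10. Over all tested genes it was so in 87.1%. SNHG17, SNHG3, SNHG15, SNHG7, SNHG11 and SNHG12 were lowest in it, and SNHG1, SNHG6, SNHG5, SNHG8, GAS5 and ZFAS1 were highest in it.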

How the data were processed

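The 6 libraries (3 control, 3 CYT) were made from mRNA separated out of total RNA of MDA-MB-231-DR cells. The authors removed low-quality, adapter and ribosomal reads, aligned the clean reads with Hisat2 and used Stringtie for FPKM. The submitters' processing notes name the build hg38 and FastQC 0.12.1. The program, annotation and strand setting of the counting are not given in the sources used here. The authors deposited raw read counts and FPKM values per gene, which were read as deposited. No per-sample column was left out.

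Counts were fitted with edgeR 4.0.16 in R 4.3.3 (TMM normalization, filterByExpr with a minimum count of 10, quasi-likelihood test of CYT against control, Benjamini-Hochberg adjustment over 15572 genes). A gene was called at an adjusted p of 0.05, with no fold threshold. CPM values are TMM-normalized. Between any pair of replicates the chi-square was at least 25.02 per gene, far over sampling noise, so all 6 libraries were counted. The biological coefficient of variation was 37.5%. Exact permutation of 3 against 3 libraries cannot give a two-sided p under 0.1 and was not used. The test was tried on simulated counts.

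The members and gene lists were chosen with earlier results of these data known. The genes named are all members called, GAS5, ZFAS1, EPB41L4A-AS1 and DANCR, and the 10 members of highest FPKM. Of each list at most 3 called genes in each direction are named, with the snoRNP gene NUFIP1 in addition. The remaining members are given for completeness. CPM per kb of merged exons (GENCODE 29), the division by kind of snoRNA, the transcript starts and the genes with newer SNHG symbols were added after the data were seen. Merged lengths of SNHG5, SNHG12, SNHG4, SNHG20 and SNHG28 come from gene models whose locus differs from that of the deposited table. The sequence shown for a gene is that of the transcript with the run, or of any where none has it, that starts nearest to the start of the gene.

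The replicate numbers of the labels were checked for pairing. Deviations from the group mean correlated at 0.188 between control 1 and CYT 1. They correlated at 0.458 between control 2 and CYT 2, and at 0.124 between control 3 and CYT 3. All were over 0.1, the level taken here as a sign of pairing. Over the 23 tested members alone the correlations were 0.0271, 0.363 and 0.319, the first of them under 0.1. The pairs of control 1 with CYT 3 (0.303) and control 3 with CYT 1 (0.201) were also above that level, so pairing is not settled. Fold changes and calls are from the unpaired fit unless the block is named. With the block, 8 members and 6209 genes were called, against 7 and 4451 in the main fit. The alternatives were DESeq2 1.42.0, upper-quartile normalization, DESeq2 size factors in edgeR, no filter, a replicate block, and leaving out each library.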

Additional observations from a re-analysis of the deposited data

Results flagged for a closer look

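SNHG22, a host of scaRNAs that was too low to be tested, had 0 counts in all 3 control libraries and a summed count of 17 in the CYT libraries, with 11, 5 and 1 in replicates 1 to 3. It drew attention because a signal above the control level appeared outside the tested genes. With no filter on low counts it passed in edgeR with an adjusted p of 0.0375, and CYT replicate 3 with 1 count was below the floor of 3 counts. That p comes from the same counts that drew attention, so it adds no separate support. SNORD27, a C/D snoRNA inside SNHG1, drew attention in the same way. It had 1 count in each control library and 9, 8 and 4 in CYT replicates 1 to 3, a sum of 21 against 3. Beside it, 13 small RNA rows inside the members held exactly 1 count in every library, so a value of 1 was not taken as a read.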

How the results depend on the processing

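Of the 7 members called, SNHG17, SNHG3, SNHG28, SNHG4, SNHG15 and SNHG1 were called under DESeq2, upper-quartile normalization, DESeq2 size factors in edgeR, no filter and the replicate block, and SNHG7 was not under upper-quartile normalization (adjusted p = 0.0714) or DESeq2 size factors (0.0503). SNHG5 turned to a log2 fold change of 0.0504 under upper-quartile normalization, where the median of all genes was 0.16. That median was 0.0390 under DESeq2, 0.0384 under DESeq2 size factors and -0.0658 without the filter. The members called higher were 2 with no filter (SNHG22 added) and 2 with the replicate block (SNHG6 added), while all genes called higher were 2948 and 3120 in these fits against 2449. The members' median was -0.13 under upper-quartile normalization and under the block, and that of coding hosts was -0.08 under upper-quartile normalization. The block changed no other member's call, raised the genes called lower to 3089 and gave a median of -0.0209. It called 17 TOP and 7 snoRNP genes. TOP genes called were 11 under DESeq2 and 10 under upper-quartile normalization, where the medians were -0.00823 for TOP genes, 0.0478 for NMD factors and -0.41 for snoRNP genes (2 called). With no filter, 6 non-coding hosts and 2 snoRNP genes were called, and the NMD factor median was -0.17.

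With 1 library left out, members called ranged from 0 to 2 higher and from 3 to 7 lower, and their median from -0.40 to 0.00068. Over all genes the ranges were 1683 to 3002 higher, 1208 to 2750 lower and medians of -0.0529 to 0.0290. Called genes ranged from 2 to 4 non-coding hosts (median -0.0332 to 0.28), 23 to 74 coding hosts (-0.42 to -0.20), 3 to 12 TOP genes (-0.26 to -0.06), 1 to 7 NMD factors (-0.27 to -0.0108) and 1 to 6 snoRNP genes (-0.65 to -0.47). Log2 fold changes that crossed 0 ranged from -0.67 to 0.25 for SNHG16, from -0.40 to 0.24 for EPB41L4A-AS1, from -0.43 to 0.0760 for SNHG5, from -0.00975 to 0.38 for SNHG8 and from -0.0653 to 0.69 for SNHG20. The causes were not tested. A lone missing call at 3 libraries a group does not show that a level was the same, and genes under the filter could not be tested.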
